A study of Homo sapiens with 9 samples.

Results

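Antigen processing and MHC genes were followed in Ramos cells, a human Burkitt's lymphoma B cell line, that had been given HDL NPs, human HDL or PBS. The list held 36 genes of the class I pathway (16 genes) and the class II pathway (20 genes) by name, out of 20046 gene symbols on the array. Of these, 34 passed the filter on dim probes, out of 10307 genes that did in all: 15 class I and 19 class II genes. PDIA3, a disulfide isomerase of the class I loading complex, was detected on 1 array and was left out, and no probe for HLA-DQA1, a class II alpha chain, was analysed here. The filter did not use the condition of an array, and 31 of the 34 genes were detected on all 9 arrays. The exceptions were NLRC5 (3 arrays), HLA-DQB1 (5 arrays) and ERAP1 (8 arrays).

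The HDL NP condition was a 48 h exposure to HDL NPs at 40 nM. These are gold nanoparticles coated with apolipoprotein A-I and phospholipids, made to resemble high-density lipoprotein. The human HDL condition was a 48 h exposure to native, cholesterol-rich lipoprotein at the same 40 nM, and the PBS condition was saline for 48 h. Each condition had 3 biological replicates on Illumina HT-12 arrays, so that each comparison set 3 arrays against 3. All cells were of 1 line, and a change in the share of cells that express a gene cannot be told apart from a change in RNA per cell in bulk RNA of this kind.

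Class I molecules present peptides made by the proteasome. The peptides are pumped into the endoplasmic reticulum by TAP, trimmed there by ERAP enzymes and fitted onto a heavy chain paired with beta-2-microglobulin, and the complex is shown to CD8+ T cells. Class II molecules are alpha and beta chain pairs that leave the endoplasmic reticulum with the invariant chain, CD74, and receive endosomal peptides with the help of HLA-DM before they are shown to CD4+ T cells. B cells are professional antigen presenting cells and transcribe class II genes without a stimulus, through a promoter complex in which the RFX proteins bind the X box, NF-Y binds the Y box and CIITA is the coactivator.

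The arrays were alike in brightness. Mean intensity was 228 to 261 on HDL NP arrays, 237 to 246 on human HDL arrays and 229 to 278 on PBS arrays, and 33.9 to 38.1% of probes were detected. Of the B cell markers, CD79A, CD79B, MS4A1, CD22, CD37, EBF1 and CD72 were detected on all 9 arrays. PAX5 was detected on 0 arrays and BLNK on 1. The summed intensity of the 7 measured B cell markers was 8686 to 9992 with HDL NPs, 9202 to 9673 with human HDL and 9461 to 10978 with PBS. CD79A (-0.21) and CD72 (-0.27) were lower on all HDL NP arrays than on all PBS arrays, on the log2 scale, and the other 5 were not separated. Of 10 T cell markers, CD247 was detected on all 9 arrays, LCK on 6, CD2 on 4 and CD28 on 3, while CD3E, CD3G and CD4 were detected on 0, CD3D on 1 and CD8A and ZAP70 on 2. CD247, the zeta chain of the T cell receptor complex, was also below PBS on all HDL NP arrays, with a log2 fold change of -0.25 (unadjusted p = 0.044, adjusted p = 0.32, limma). Of 10 myeloid markers, CD68 was detected on all 9 arrays, CD14 on 8 and LYZ on 7, and the others on 0 to 2. The part of these markers in the member values was not tested. The summed intensity of the 4 measured T cell markers (of 10) was 510 to 656, 568 to 604 and 559 to 645 in the same order of conditions, and that of the 3 measured myeloid markers (of 10) was 363 to 388, 352 to 355 and 347 to 375. The 4 measured plasma cell markers (of 5) summed to 1567 to 1849, 1755 to 1801 and 1764 to 2117. One library stood apart: on HDL NP replicate 1, 591 genes lay at least 1 log2 unit from their human HDL mean, against 6 and 9 genes on the other HDL NP arrays. The median of all genes on it was 0.11 above PBS and that of the 9 measured housekeeping genes 0.48 above, while the other HDL NP arrays had 0.02 and -0.03 for the housekeeping genes. Without that array, values are also given for genes described by their own levels where it turned the sign or moved the fold change by over 1.5 times.

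The comparison of HDL NPs with PBS asked whether the nanoparticle altered these genes. No member passed the threshold of an adjusted p of 0.05 in either direction (limma, Benjamini-Hochberg over 10307 genes), where 0.369% of all genes were called higher and 0.0388% lower. At an unadjusted p under 0.05 (limma), 2 members were higher, ERAP2 and TAP2. The 7 lower were all class II genes: HLA-DRB1, HLA-DRB3, HLA-DRB4, HLA-DRB5, HLA-DRB6, HLA-DPB1 and HLA-DMB. Over all genes, on all 9 arrays, 9.07% were higher and 6.35% lower at that p. Without HDL NP replicate 1 the member counts were 0 and 7. With 1 array left out in turn they ran 0 to 3 higher and 4 to 9 lower, with 4 without HDL NP replicate 3. Under other settings they ran 0 to 3 and 1 to 9. Student's test per gene, one of the tests in the study's general statistics, gave 0 higher and 7 lower before adjustment and 0 after it. Class II genes lay mostly below PBS: 16 of 19 had a negative log2 fold change, with a median of -0.23, as had 8 of 15 class I genes, with a median of -0.03. Over all genes 44.0% were negative and the median was 0.03. Without HDL NP replicate 1 the class II median was -0.20 and the class I median turned to 0.04. The list medians are a description and were not tested. The HLA-DRB probes may read shared transcripts, so the counts and medians of class II genes rest in part on values that are not independent.

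**Figure D1:**
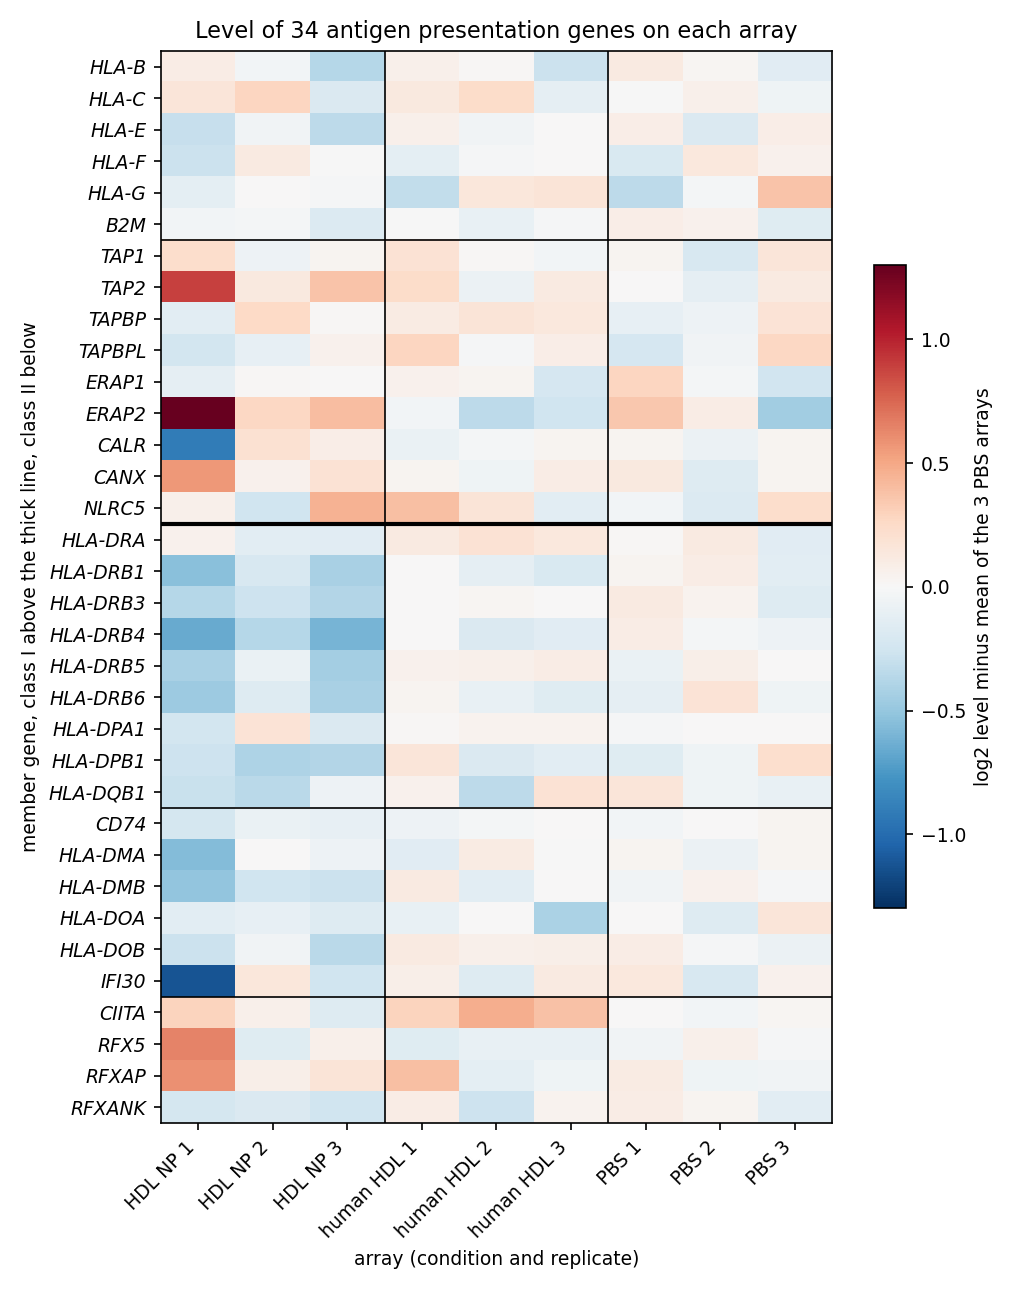
Log2 level of the 34 measured genes (rows, in the order of the lists) on each of the 9 arrays (columns), as the difference from the mean of the 3 PBS arrays; red is above and blue below that mean. The HLA-DRB rows are blue on all 3 HDL NP arrays, and ERAP2, CALR, IFI30 and RFX5 take their extreme colours on HDL NP replicate 1.

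The class II chains were the group with the lowest values. All 9 measured chain genes had a negative log2 fold change for HDL NPs against PBS, between -0.54 and -0.08, with a median of -0.34. HLA-DRB4, a DR beta chain, had log2 levels of 8.13, 8.41 and 8.19 on HDL NP arrays, against 8.80, 8.59 and 8.63 on human HDL arrays and 8.88, 8.76 and 8.71 on PBS arrays. There was no overlap between the HDL NP arrays and the 6 others, all of which were higher. Against PBS the log2 fold change was -0.54 (SE 0.12, 95% interval -0.81 to -0.28), a 1.46-fold lower level, with an unadjusted p of 0.0008 and an adjusted p of 0.078 in limma. It had the smallest adjusted p of the members, and that p passed 0.05 under some other settings: 0.036 with no background correction, 0.039 with a larger offset, 0.031 with array weights and 0.047 without HDL NP replicate 2. Over all alternatives it ran between 0.031 and 0.54, and the log2 fold change between -0.63 and -0.22.

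HLA-DRB1, the main DR beta chain, had log2 levels of 7.04, 7.37 and 7.16 with HDL NPs, 7.59, 7.46 and 7.38 with human HDL and 7.62, 7.68 and 7.44 with PBS. The highest HDL NP array was just under the lowest human HDL array. Against PBS the log2 fold change was -0.39 (SE 0.13, adjusted p = 0.21, limma). HLA-DRB3, a further DR beta chain, had 7.22, 7.32 and 7.21 on HDL NP arrays, 7.59, 7.62 and 7.58 on human HDL arrays and 7.71, 7.64 and 7.42 on PBS arrays, again without overlap. HLA-DRB5 had 8.70, 9.03 and 8.68 with HDL NPs, 9.19, 9.19 and 9.22 with human HDL and 9.03, 9.21 and 9.13 with PBS. Here HDL NP replicate 2 met the lowest PBS array, and the other HDL NP arrays lay below it. HLA-DRB6, a pseudogene, had 7.70, 8.0 and 7.75 with HDL NPs, 8.21, 8.07 and 8.01 with human HDL and 8.05, 8.35 and 8.11 with PBS. The log2 fold changes of HLA-DRB3, HLA-DRB5 and HLA-DRB6 against PBS were -0.34, -0.32 and -0.35, with adjusted p of 0.23, 0.27 and 0.25 (limma). DR beta genes are near-identical copies of each other, and which of them Ramos cells carry is not given in the sources used here, so the DR beta probes may read shared transcripts and are not independent measurements. Of the 2 dimmer HLA-DRB4 probes, one gave -0.32 and the other 0.21.

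HLA-DRA, the alpha chain that pairs with every DR beta chain, had the smallest difference beside HLA-DPA1. Its log2 levels were 11.25, 11.05 and 11.04 with HDL NPs, 11.31, 11.38 and 11.33 with human HDL and 11.21, 11.31 and 11.04 with PBS, so that HDL NP and PBS arrays overlapped. Its log2 fold change was -0.08 (SE 0.12, 95% interval -0.34 to 0.18, adjusted p = 0.78, limma), and it was -0.15 without HDL NP replicate 1. A second probe for it gave -0.17, with all HDL NP arrays below all PBS arrays. HLA-DPB1, the DP beta chain, had 5.26, 5.13 and 5.15 with HDL NPs, 5.69, 5.34 and 5.39 with human HDL and 5.37, 5.47 and 5.75 with PBS. Its HDL NP arrays were below all others, with a log2 fold change against PBS of -0.35 (adjusted p = 0.28, limma). The remaining chains were HLA-DPA1, whose HDL NP replicate 2 was its highest array at 10.28, and HLA-DQB1, detected on 5 arrays and overlapping between all conditions.

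**Figure D2:**
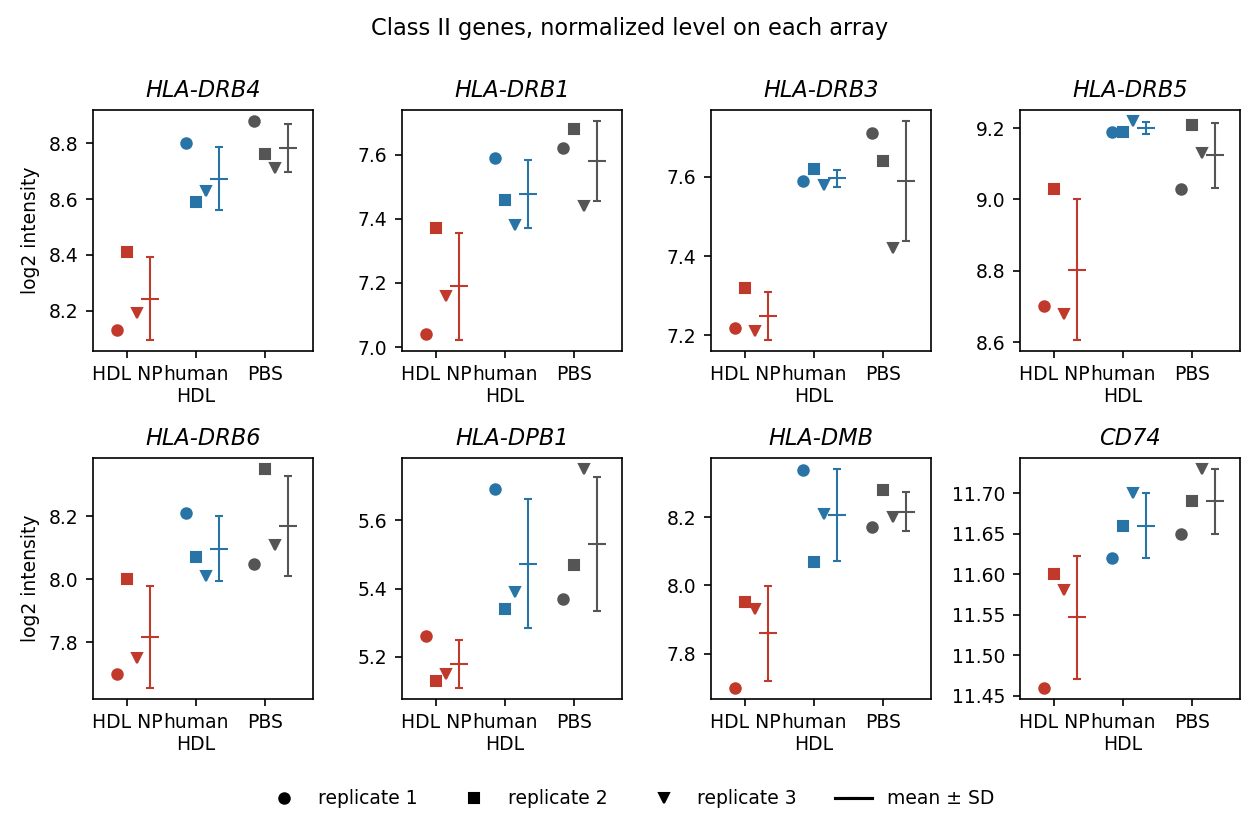
Log2 intensity (y axis, a different range in each panel) of 8 class II genes on each array by condition (x axis); symbols mark the replicate and bars the mean ± SD of 3 arrays. The HDL NP arrays lie below every PBS array in 7 panels, and in the HLA-DRB5 panel HDL NP replicate 2 meets the lowest PBS array at 9.03.

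In counts of arrays, 8 of 19 class II genes had all 3 HDL NP arrays below all 3 PBS arrays: HLA-DRB1, HLA-DRB3, HLA-DRB4, HLA-DRB6, HLA-DPB1, CD74, HLA-DMB and RFXANK. The 8 are not independent of each other, since the HLA-DRB probes among them may read shared transcripts. No class II gene had the opposite order, and no class I gene had this one. Over all genes, 8.50% were below in this way and 11.7% above. Leaving out an array can only keep or raise such a count. The count was 8 when HDL NP replicate 1 was left out, where 16% of all genes were below in this way. It was 1 of 19 when the arrays were scaled to a common median in place of quantiles, with 6.33% of all genes, although the class II median was -0.23 with that scaling too, and it was 5 when a gene's probes were averaged, with 8.52% of all genes. An exact permutation test over 3 against 3 arrays cannot go below a two-sided p of 0.1, which is the value each of these genes reached. The count uses the brightest probe of a gene. Dimmer kept probes of CD74, HLA-DRB6 and RFXANK overlapped between HDL NP and PBS arrays. Of the dimmer HLA-DRB4 probes, only that with a log2 fold change of -0.32 did not overlap.

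The class II loading genes were all negative against PBS as well, between -0.41 and -0.14 over 6 genes, with a median of -0.21. CD74, the invariant chain that fills the peptide groove until the endosome, had log2 levels of 11.46, 11.60 and 11.58 with HDL NPs, 11.62, 11.66 and 11.70 with human HDL and 11.65, 11.69 and 11.73 with PBS. All HDL NP arrays were below all others, but by little, with a log2 fold change against PBS of -0.15 (SE 0.11, adjusted p = 0.52, limma), or -0.10 without HDL NP replicate 1. Its 2 dimmer probes gave -0.38 and -0.19. HLA-DMB, the beta chain of the peptide exchange factor HLA-DM, had 7.70, 7.95 and 7.93 with HDL NPs, 8.34, 8.07 and 8.21 with human HDL and 8.17, 8.28 and 8.20 with PBS. Its HDL NP arrays did not overlap with the others, and the log2 fold change against PBS was -0.35 (SE 0.12, adjusted p = 0.23, limma). HLA-DMA, its partner, and HLA-DOA and HLA-DOB, which form the inhibitor of HLA-DM, overlapped between HDL NP and PBS arrays.

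IFI30, a lysosomal thiol reductase that opens disulfide bonds of antigens, had 6.28, 7.56 and 7.14 with HDL NPs, 7.48, 7.24 and 7.53 with human HDL and 7.55, 7.20 and 7.47 with PBS. HDL NP replicate 1 was far below every other array and HDL NP replicate 2 was the highest of all 9. The log2 fold change against PBS of -0.41 (SE 0.25, adjusted p = 0.44, limma) was -0.06 without HDL NP replicate 1.

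Of the 4 class II regulators, 3 had positive values against PBS by their brightest probe and 1 a negative one. CIITA, the class II coactivator, had log2 levels of 5.57, 5.35 and 5.11 with HDL NPs, 5.57, 5.75 and 5.66 with human HDL and 5.29, 5.23 and 5.31 with PBS. HDL NP arrays lay on both sides of the PBS arrays, with a log2 fold change of 0.06 (SE 0.13, 95% interval -0.22 to 0.35, adjusted p = 0.83, limma), and the sign turned without HDL NP replicate 1 (-0.05) and with array weights (-0.07). RFX5, an X box binding subunit, had 10.17, 9.36 and 9.59 with HDL NPs, 9.36, 9.42 and 9.43 with human HDL and 9.47, 9.59 and 9.51 with PBS. Of the HDL NP arrays, replicate 1 stood well above the PBS arrays and replicates 2 and 3 did not, and the log2 fold change of 0.18 was -0.05 without replicate 1. A second, dimmer RFX5 probe, detected on 8 arrays, gave -0.27, so the direction of RFX5 depends on the probe. RFXAP, a second RFX subunit, had 7.06, 6.55 and 6.64 with HDL NPs, 6.86, 6.34 and 6.41 with human HDL and 6.58, 6.41 and 6.42 with PBS. Its log2 fold change of 0.28 (adjusted p = 0.43, limma) was 0.12 without HDL NP replicate 1. RFXANK, the third RFX subunit, was the only regulator with all HDL NP arrays, at 8.35, 8.39 and 8.32, below all PBS arrays, at 8.68, 8.62 and 8.44, and its human HDL arrays, at 8.68, 8.31 and 8.63, spanned both. Its dimmer probes gave -0.27 each against PBS, with overlap between HDL NP and PBS arrays.

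**Figure D3:**
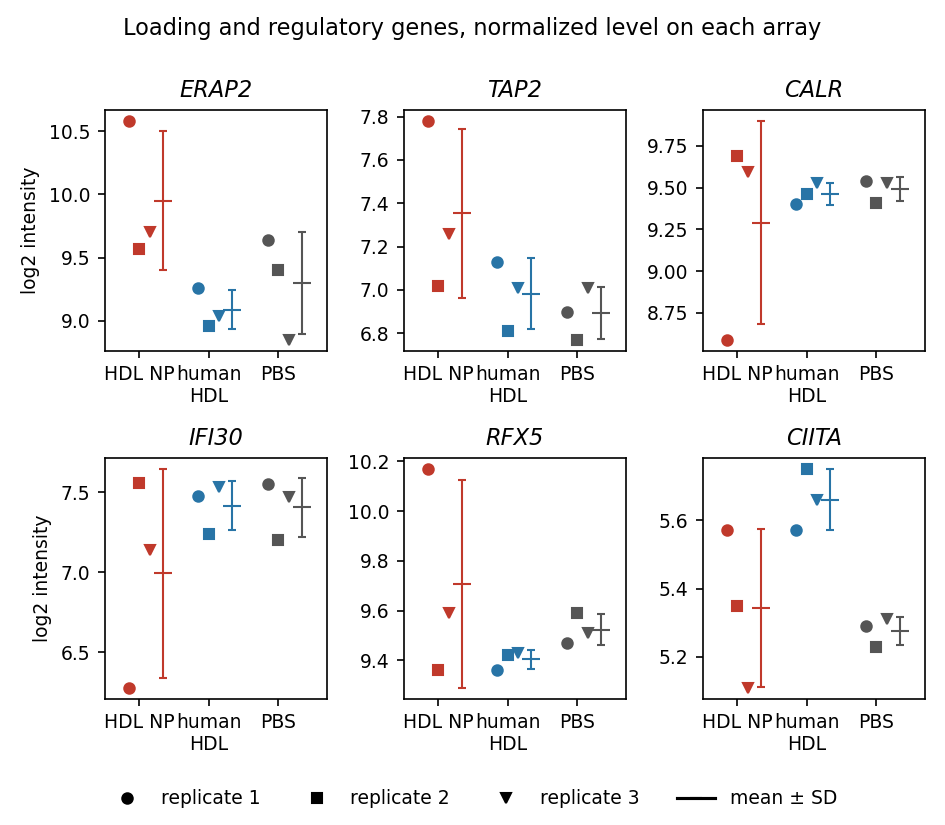
Log2 intensity (y axis, a different range in each panel) of 6 loading and regulatory genes on each array by condition (x axis); symbols mark the replicate and bars the mean ± SD of 3 arrays. HDL NP replicate 1 is the most extreme array for ERAP2, TAP2, CALR, IFI30 and RFX5, and the human HDL arrays lie above the PBS arrays for CIITA.

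Promoter sequence is given for 3 class II genes, with an X box match in each and a Y box match beside it in the DR beta pair. RefSeq promoter windows of build GRCh38.p14, from 250 bases before to 50 bases after each gene's start, were given for 28 of the 36 members. They are reference sequence and not the alleles of Ramos cells. The DR beta pair and HLA-DMB are shown as genes that hold the pattern below and had low values, both known when they were picked. IFI30 (-0.41) and HLA-DPB1 (-0.35) also had windows and low values against PBS, without that pattern. HLA-DMA holds it and had -0.20. A link between the pattern and the levels was not tested. The first capitals in each mark ACTGATG, the downstream end of the X1 part of the X box in these genes and a pattern chosen after the letters were seen. The last capitals, in the DR beta genes, mark the Y box, CTGATTGG. All 3 are on the minus strand, at chr6:32589870-32589945 for HLA-DRB1, chr6:32530353-32530428 for HLA-DRB5 and chr6:32941058-32941133 for HLA-DMB.
HLA-DRB1: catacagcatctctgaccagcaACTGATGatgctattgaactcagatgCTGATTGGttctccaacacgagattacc
HLA-DRB5: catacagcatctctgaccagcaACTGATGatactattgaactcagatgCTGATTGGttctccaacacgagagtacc
HLA-DMB: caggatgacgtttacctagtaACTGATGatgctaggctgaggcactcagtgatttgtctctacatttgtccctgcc
The HLA-DRB1 and HLA-DRB5 stretches were identical at 74 of 76 bases, with 19 bases between the X and the Y match in both. On either strand ACTGATG was in the windows of 4 of 15 class II genes with a window (HLA-DRB1, HLA-DRB5, HLA-DMA and HLA-DMB), in 0 of 13 class I genes and in 2.93% of the 27305 genes in the table. A longer X1 box consensus was in HLA-DQB1, HLA-DMA and HLA-DMB and in 0.70% of all genes, and it overlaps ACTGATG at HLA-DMA and HLA-DMB. The Y box core ATTGG was in 12 of 15 class II genes, 9 of 13 class I genes and 39.7% of all genes. The octamer ATGCAAAT was in 0 member windows and 2.19% of all genes. A match describes the letters and not a bound site.

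The class I heavy chains and beta-2-microglobulin held close to the PBS level. Their log2 fold changes for HDL NPs against PBS ran between -0.23 and 0.08, with a median of -0.07. Of the 6 genes, 5 were negative, and none separated HDL NP from PBS arrays. HLA-B, a classical heavy chain, had 9.97, 9.84 and 9.51 with HDL NPs, 9.95, 9.90 and 9.60 with human HDL and 10.00, 9.91 and 9.73 with PBS, with all conditions overlapping and a log2 fold change of -0.10 (SE 0.15, adjusted p = 0.76, limma), or -0.20 without HDL NP replicate 1. B2M, the light chain of every class I molecule, had 12.33, 12.35 and 12.19 with HDL NPs, 12.36, 12.27 and 12.35 with human HDL and 12.47, 12.43 and 12.21 with PBS. B2M had a log2 fold change of -0.08 with a 95% interval of -0.34 to 0.17, and its second probe gave -0.12. HLA-E, a nonclassical heavy chain read by natural killer cells, had 7.44, 7.69 and 7.40 with HDL NPs, 7.81, 7.69 and 7.74 with human HDL and 7.83, 7.55 and 7.83 with PBS. It had the lowest value of this group, at -0.23 (SE 0.13, adjusted p = 0.41, limma), and HDL NP replicate 2 lay above the lowest PBS array. HLA-C, HLA-F and HLA-G overlapped between conditions in the same way.

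Among the class I loading genes, ERAP2 and TAP2 had the largest positive values of all members. ERAP2, an aminopeptidase that trims peptides in the endoplasmic reticulum, had log2 levels of 10.58, 9.57 and 9.70 with HDL NPs, 9.26, 8.96 and 9.04 with human HDL and 9.64, 9.40 and 8.85 with PBS. All HDL NP arrays were above all human HDL arrays, whereas HDL NP replicate 2 lay within the PBS range. Against PBS its log2 fold change was 0.65 (SE 0.25, 95% interval 0.10 to 1.20), a 1.57-fold higher level, with an unadjusted p of 0.024 and an adjusted p of 0.27 in limma. ERAP2 was the only member past the study's rule of a fold above 1.5 with an unadjusted p under 0.05, which 1.43% of all genes met upward and 1.10% downward. Without HDL NP replicate 1 the log2 fold change was 0.34, and 0 members met the rule. The count was also 0 without PBS replicate 3. A second, dimmer ERAP2 probe gave 0.11.

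TAP2, a subunit of the peptide transporter, had 7.78, 7.02 and 7.26 with HDL NPs, 7.13, 6.81 and 7.01 with human HDL and 6.90, 6.77 and 7.01 with PBS. All of its HDL NP arrays were above all PBS arrays, replicate 2 only by the smallest step, and overlapped with human HDL. For TAP2 against PBS it was a log2 fold change of 0.47 (SE 0.18, 95% interval 0.08 to 0.85, unadjusted p = 0.022, adjusted p = 0.26, limma), and 0.25 without HDL NP replicate 1. The second TAP2 probe ran the other way at -0.29, with all HDL NP arrays below all PBS arrays, so the direction of TAP2 depends on the probe. TAP1, the other transporter subunit, had 8.56, 8.26 and 8.38 with HDL NPs, 8.52, 8.35 and 8.29 with human HDL and 8.37, 8.13 and 8.49 with PBS, all overlapping, with a log2 fold change of 0.07 that turned to -0.01 without HDL NP replicate 1.

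CALR and CANX, the lectin chaperones calreticulin and calnexin that hold class I chains during folding, had values of opposite sign. CANX had 7.80, 7.30 and 7.43 with HDL NPs, 7.28, 7.18 and 7.34 with human HDL and 7.37, 7.07 and 7.28 with PBS, with overlap and a log2 fold change of 0.27 (SE 0.14, adjusted p = 0.39, limma). Its second probe gave 0.23, and without HDL NP replicate 1 the value was 0.13. CALR had 8.59, 9.69 and 9.59 with HDL NPs, 9.40, 9.46 and 9.53 with human HDL and 9.54, 9.41 and 9.53 with PBS. HDL NP replicate 1 was its lowest array and the other HDL NP arrays were its highest, and the log2 fold change of -0.21 (SE 0.23, adjusted p = 0.68, limma) turned to 0.15 without HDL NP replicate 1 and to 0.06 with array weights. The remaining loading genes, TAPBP and TAPBPL (tapasin and a tapasin-related peptide editor), ERAP1 (the other trimming aminopeptidase) and NLRC5 (the class I coactivator), overlapped between all conditions.

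The promoters of TAP2 and ERAP2, the 2 members with the largest positive values against PBS, are shown. Both hold the interferon response element pattern of GAAA, any 2 bases and GAAA again, in capitals, as do other class I genes named below. TAP2 is on the minus strand at chr6:32838762-32838837 and ERAP2 on the plus strand at chr5:96876414-96876489, both in build GRCh38.p14 from RefSeq.
TAP2: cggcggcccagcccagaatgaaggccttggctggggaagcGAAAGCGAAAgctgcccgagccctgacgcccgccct
ERAP2: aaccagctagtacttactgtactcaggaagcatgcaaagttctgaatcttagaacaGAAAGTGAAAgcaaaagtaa
On either strand the pattern was in 7 of 13 class I genes with a window (HLA-F, B2M, TAP1, TAP2, TAPBP, ERAP1 and ERAP2), in RFX5 alone of 15 class II genes, and in 4.38% of all genes. The log2 fold changes of the 8 genes for HDL NPs against PBS had both signs. ERAP2 had 0.65, TAP2 0.47, RFX5 0.18, TAP1 0.07, TAPBP 0.05, ERAP1 -0.03, HLA-F -0.06 and B2M -0.08. A second kept probe had the other sign for TAP2 (-0.29), RFX5 (-0.27) and HLA-F (0.15), and the same sign for ERAP2, TAPBP and B2M.

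**Figure D4:**
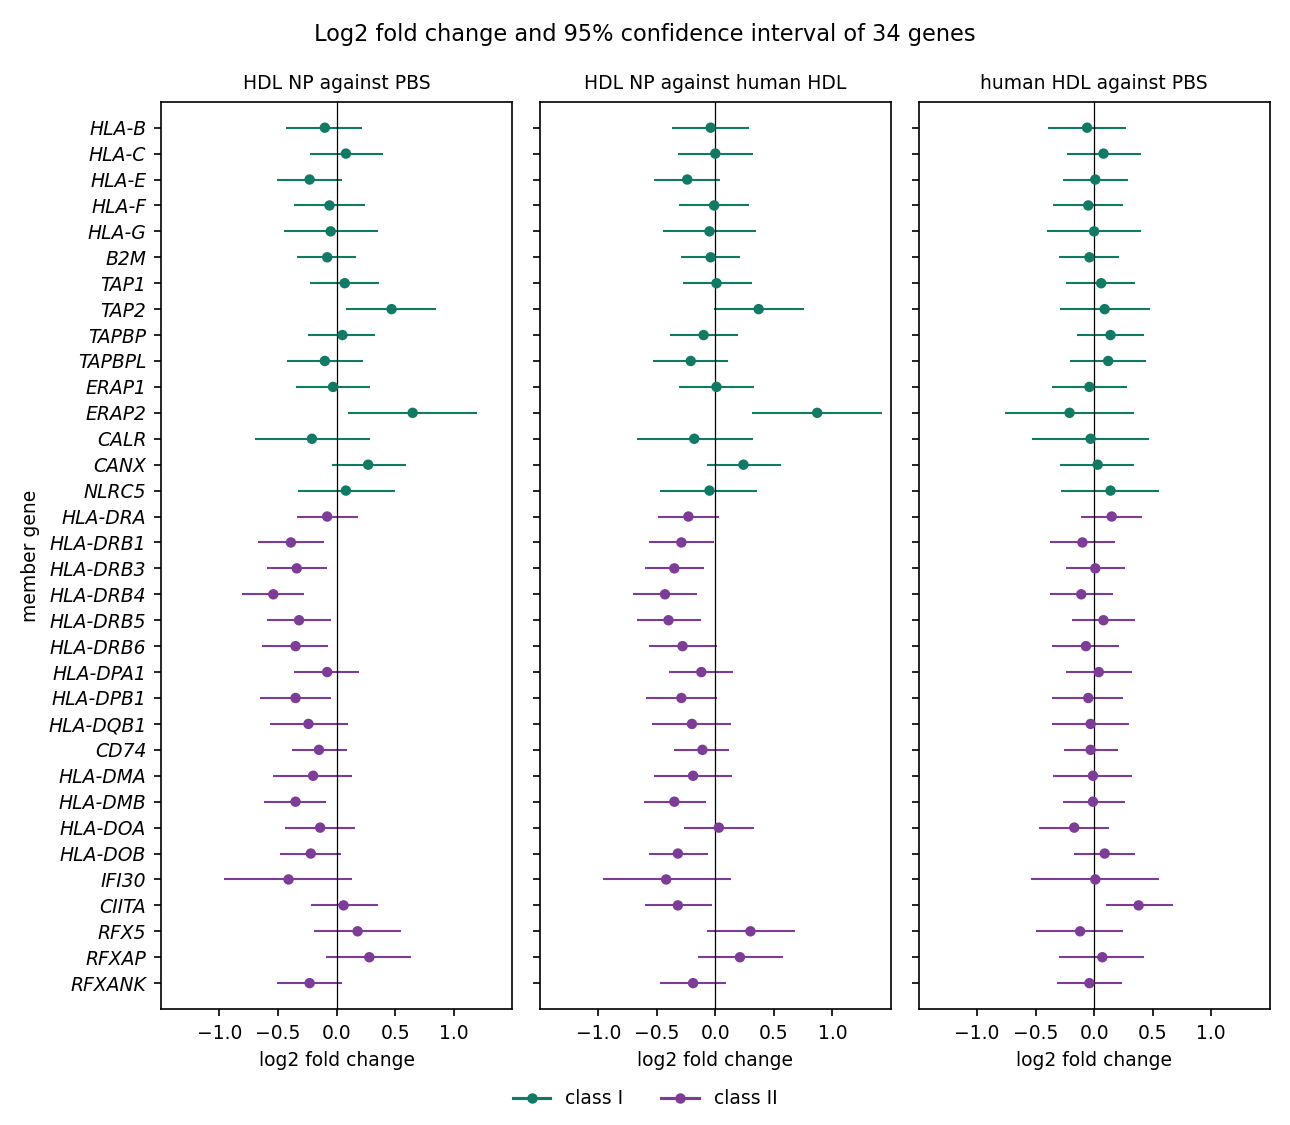
Log2 fold change (points) with its 95% confidence interval from limma (lines) of the 34 genes (rows) in the 3 comparisons (panels). For HDL NPs against PBS, 2 class I genes have intervals above 0 and 7 class II genes below 0, and for human HDL against PBS only the interval of CIITA leaves 0 out.

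Human HDL at the same concentration was compared with PBS to ask what native lipoprotein does. The members lay near the PBS level, between -0.21 and 0.38, with medians of 0.01 for class I, -0.01 for class II and 0 for all genes. No member was called (limma, 0% of all genes in either direction), 1 was higher at an unadjusted p under 0.05 and 0 were lower, beside 1.14% and 1.16% of all genes. Student's test gave 2 higher and 1 lower before adjustment and 0 after it. The 1 member in limma was CIITA, whose human HDL arrays, at 5.57, 5.75 and 5.66, were all above its PBS arrays, at 5.29, 5.23 and 5.31. The log2 fold change was 0.38 (SE 0.13, unadjusted p = 0.013), with an adjusted p of 1 in limma and a range of 0.14 to 0.43 over all alternatives. Conditions did not overlap for 2 class II genes upward (CIITA and HLA-DPA1) and 1 downward (RFX5), where the background was 4.92% and 4.26%. The HLA-DRB genes had values of -0.11 to 0.08 here.

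HDL NPs were compared with human HDL to separate the nanoparticle from native lipoprotein at an equal concentration. The HDL NP arrays are the same as in the comparison with PBS, so the values are not independent of it. No member was called (limma), with 0.553% of all genes called higher and 0.0388% lower. At an unadjusted p under 0.05, 1 member was higher, ERAP2, and 7 were lower, HLA-DRB1, HLA-DRB3, HLA-DRB4, HLA-DRB5, HLA-DMB, HLA-DOB and CIITA, beside 9.56% and 6.81% of all genes. The 7 lower ran 4 to 9 with 1 array left out and 0 to 11 under other settings, and the 1 higher 1 to 4 and 0 to 2. Student's test gave 0 higher and 6 lower before adjustment and 0 after it. ERAP2 had a log2 fold change of 0.87 (SE 0.25, 95% interval 0.31 to 1.42, adjusted p = 0.15, limma), a 1.82-fold higher level past the study's rule, which 1.63% of all genes met upward and 1.35% downward. Without HDL NP replicate 1 it was 0.55 and below the fold of the rule, and the second ERAP2 probe gave 0.37. HLA-DRB4 had -0.43 (adjusted p = 0.14, limma) and HLA-DRB5 -0.40 (adjusted p = 0.18, limma). CIITA had -0.32 (SE 0.13, adjusted p = 0.27, limma), and its highest HDL NP array equalled its lowest human HDL array after rounding, at 5.57.

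The class II median for HDL NPs against human HDL was -0.28 and the class I median -0.04, with 0.03 for all genes. All 9 class II chain genes were negative, between -0.43 and -0.12. This count and the class II counts that follow include the HLA-DRB probes, which may read shared transcripts. Conditions did not overlap for 11 of 19 class II genes downward and 0 upward, and for 1 class I gene in each direction, ERAP2 upward and HLA-E downward, with 12.5% of all genes separated upward and 10.1% downward. The class II count was 11 without HDL NP replicate 1, where 17.1% of all genes were separated downward, and leaving out an array cannot lower it. It was 1 with scaling to a common median, with 6.70% of all genes.

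**Figure D5:**
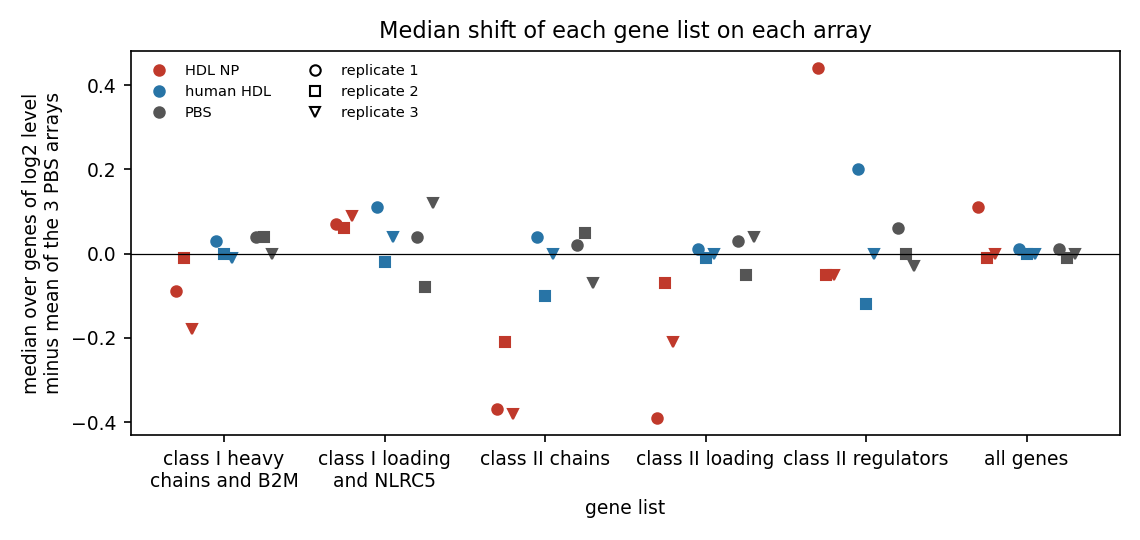
Median over the genes of each list (x axis) of the log2 level minus the mean of the 3 PBS arrays (y axis), with 1 point per array; colours mark the condition and symbols the replicate. The class II chains lie at -0.37, -0.21 and -0.38 on the HDL NP arrays, with the human HDL and PBS arrays between -0.10 and 0.05, and the regulators lie at 0.44 on HDL NP replicate 1 and -0.05 on the other HDL NP arrays.

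By array, the class II median was -0.28, -0.14 and -0.26 on HDL NP arrays, 0.06, -0.10 and 0 on human HDL arrays and 0.02, 0 and -0.02 on PBS arrays. The HDL NP arrays were thus the lowest of the 9, HDL NP replicate 2 by the smallest margin. The class I median was -0.04, 0.02 and 0.02 on HDL NP arrays and overlapped with both other conditions.

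Upstream of the members, the immunoproteasome, the form of the proteasome that cuts peptides for class I, had the lowest median of the pathway lists. Its 6 genes, with the proteasome activator subunits, had a median of -0.32 for HDL NPs against PBS and -0.30 against human HDL, and 0 passed the adjusted test, with 3 lower at an unadjusted p under 0.05 in each comparison (PSMB8, PSMB9 and PSMB10), beside 6.35% of all genes against PBS and 6.81% against human HDL. By array the list median was -0.56, -0.12 and -0.22 on HDL NP arrays, furthest from PBS on replicate 1, with -0.06 to 0.01 on human HDL arrays and -0.04 to 0.07 on PBS arrays. PSMB9, the immunoproteasome subunit encoded next to TAP1, had log2 levels of 5.58, 6.41 and 5.87 with HDL NPs, 6.77, 6.47 and 6.58 with human HDL and 6.76, 6.61 and 6.41 with PBS. HDL NP replicate 2 met the lowest PBS array. The log2 fold change of PSMB9 was -0.64 against PBS (adjusted p = 0.16, limma) and -0.65 against human HDL (adjusted p = 0.14, limma), and past the study's rule in both. Without HDL NP replicate 1 it was -0.45 and -0.47, short of that fold. PSMB10 had 9.75, 11.01 and 10.86 with HDL NPs, 11.25, 11.26 and 11.14 with human HDL and 11.14, 11.12 and 11.05 with PBS, below all others but mainly on HDL NP replicate 1. Its log2 fold change was -0.56 against PBS and -0.68 against human HDL, and without that array -0.17 and -0.28.

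Among the factors that bind the X and Y boxes or act on them, 1 of 9 measured genes was called higher at an adjusted p under 0.05 (limma). That held against PBS and against human HDL, beside 0.369% and 0.553% of all genes. Against PBS, 8 of the 9 values were positive, with a list median of 0.12. Of all 10307 genes, 5774 were positive, with a median of 0.03. The 9 measured housekeeping genes had 7 positive values and a median of 0.11. By array the median of the X and Y box factors was 0.29, -0.03 and 0.17 on HDL NP replicates 1, 2 and 3. Of these factors, 2 were higher at an unadjusted p under 0.05 (limma), beside 9.07% of all genes. CREB1, which binds the X2 element beside the X1 box, had 10.76, 10.35 and 10.61 with HDL NPs, 9.68, 9.62 and 9.73 with human HDL and 9.79, 9.77 and 9.76 with PBS, with no overlap. Its log2 fold change was 0.80 against PBS (SE 0.13, adjusted p = 0.032, limma) and 0.90 against human HDL (SE 0.13, adjusted p = 0.011, limma). The call rests on the setting. With the mean of its probes the log2 fold changes were 0.22 and 0.25 and the adjusted p 0.39 and 0.32, and with median scaling the adjusted p were 0.46 and 0.24. It was also lost on leaving out any single array but HDL NP replicates 1 and 2 in the comparison with PBS (adjusted p of 0.068 to 0.19), and on leaving out HDL NP replicate 3 or any human HDL array in the comparison with human HDL (0.063 to 0.092). Fitting only the groups compared gave 0.18 and 0.092, and Student's test 0.36 and 0.26. EP300, a histone acetyltransferase recruited by CIITA, had 6.23, 5.23 and 5.83 with HDL NPs, 5.25, 4.82 and 5.11 with human HDL and 5.32, 5.22 and 5.25 with PBS. HDL NP replicate 2 lay within the other conditions, and the log2 fold change of EP300 was 0.50 against PBS (adjusted p = 0.29, limma) and 0.70 against human HDL (adjusted p = 0.15, limma), the second past the study's rule. These values were 0.27 and 0.47 when HDL NP replicate 1 was left out, short of that fold.

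In the costimulation list, CD70, the ligand of the costimulatory receptor CD27, had 8.25, 9.54 and 9.42 with HDL NPs, 9.82, 9.60 and 9.75 with human HDL and 9.85, 9.60 and 9.92 with PBS. Its HDL NP arrays were below all others, and the log2 fold change against PBS of -0.72 (SE 0.27, adjusted p = 0.25, limma) was -0.31 without HDL NP replicate 1. The 7 measured genes of this list, CD70 among them, gave 0 calls, and the list median was -0.17. The remaining pathway lists had 0 calls, with medians to be read beside the 0.03 of all genes: 0.09 for 10 peptidases and chaperones of the cytosol and endoplasmic reticulum, -0.01 for 8 endosomal proteases, 0.13 for 8 genes of class II turnover and trafficking, -0.02 for 8 interferon regulators of MHC genes, and 0.03 for 8 other presenting molecules and stress ligands.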

How the data were processed

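The authors deposited, per the file headers, the bead-averaged intensity with its detection p-value, at 47323 probes and on 9 Illumina HT-12 arrays, neither background-corrected nor normalized between arrays. Here the intensities were background-corrected by normexp, using negative controls deduced from those p-values and an offset of 16, quantile-normalized and put on the log2 scale (limma 3.58.1, R 4.3.3). A probe was kept with a detection p under 0.05 on 3 of 9 arrays or more, and the brightest kept probe stood for a gene. Probes were named through the platform annotation: 30113 had 1 symbol, 8 several and 17202 none. The members had 54 probes, of which 49 were kept, and 12 members had more than 1.

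Conditions were compared with lmFit, contrasts and eBayes over all 9 arrays, with 12.3 total degrees of freedom and Benjamini-Hochberg adjustment over 10307 genes. The study's rule is a fold above 1.5 with an unadjusted p under 0.05. The study does not name the test behind that p for the arrays. Its general statistics name one-way ANOVA and Student's test. Values of different probes were not set against each other, and precision is limited by how few arrays there are. The limma fit was tested on data simulated from the processed values. The background correction, normalization, filter and choice of probe before it were not tested in that way.

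The members, gene lists and motifs were chosen with earlier results of these data known. Values on every array are given for members past a threshold, for the 3 highest and 3 lowest of each class for HDL NPs against PBS, and for HLA-B, B2M, TAP1, HLA-DRA, CD74 and CIITA. Other DR beta chains, HLA-DPB1, HLA-DMB and RFXANK were added after their values were seen. Pathway genes are named when past a threshold.

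A second deposited table holds 1 value per probe and array of unstated unit, scored here as unknown in scale, centring and direction. Its column medians were 2.97 to 3.44, or 3.09 to 3.35% of the intensity. The scatter between arrays of brighter probes, as an SD, was 0.57 for HDL NP replicate 1 and 0.34 to 0.36 elsewhere. The intensities gave 0.51 and 0.12 to 0.15. The table was not used.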

Additional observations from a re-analysis of the deposited data

How the results depend on the processing

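Under 10 other settings and with each array left out in turn, 724 of 760 single-gene values kept their direction and side of the threshold, 8 came past it (HLA-DRB4, PSMB9 and EP300), 19 no longer passed it (all CREB1) and 9 turned in sign. The number of members called lower for HDL NPs against PBS, 0, was 1 with no background correction, 1 with an offset of 50 and 1 with array weights, HLA-DRB4 each time, and 0 to 1 with 1 array left out. Of the members past the study's rule, the 1 higher for HDL NPs against PBS was 0 with median scaling, averaged probes of a gene, array weights or Student's test and 0 to 2 with 1 array left out, and the 0 lower ran 0 to 2. For HDL NPs against human HDL the 1 higher was 0 with Student's test and 0 to 1 with 1 array left out, and the 0 lower ran 0 to 1.

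Counts of genes without overlap are given beside the share of all genes without overlap. Leaving out an array can only keep or raise both. For genes lower with HDL NPs against PBS that share, 8.50%, was 6.33% with median scaling, 8.52% with the mean of probes and 8.5 to 16% with 1 array left out, and against human HDL 10.1% was 6.70%, 9.89% and 10.1 to 17.1%. For genes higher it was 11.7 to 21.9% and 12.5 to 23.2% with 1 array left out, and for human HDL against PBS 4.92 to 10.6% higher and 4.26 to 10.1% lower. The member counts did not follow that share in step. Class II lower against PBS fell from 8 to 1 with median scaling. It was 8 without HDL NP replicate 1, where the share was 16%. The counts of members in the next paragraph depend on the setting and are not read as changes in the members.

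Genes without overlap for HDL NPs against PBS: class I higher, 1, was 0 with median scaling and 1 to 3 with 1 array left out, and class I lower, 0, was 0 to 1. Class II lower, 8, was 1 with median scaling, 5 with the mean of probes and 8 to 12 with 1 array left out, and class II higher, 0, was 0 to 1. For human HDL against PBS, class II higher, 2, was 1 with median scaling and 2 to 4 with 1 array left out, class II lower, 1, was 1 to 3, and class I was 0 to 2 in both directions. For HDL NPs against human HDL, class I higher, 1, was 2 with the mean of probes and 1 to 3 with 1 array left out, and class I lower, 1, was 1 to 3. Class II higher, 0, was 1 with the mean of probes and 0 to 1 with 1 array left out, and class II lower, 11, was 1 with median scaling and 11 to 13 with 1 array left out.

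The class I median for HDL NPs against PBS, -0.03, was 0.01 with median scaling, 0.05 with the mean of probes, 0.02 with array weights and -0.06 to 0.05 with 1 array left out. The class II median, -0.23, was -0.14 with no background correction and -0.31 to -0.18 with 1 array left out. For human HDL against PBS the class I median, 0.01, was -0.06 with median scaling and -0.01 to 0.06 with 1 array left out. For HDL NPs against human HDL the class I median, -0.04, was 0.05 with median scaling and -0.08 to 0.03 with 1 array left out. The class II median, -0.28, was -0.16 with no background correction, -0.18 with an offset of 50, -0.14 with median scaling and -0.32 to -0.22 with 1 array left out. Median scaling moved the median of all genes to 0.15 in that comparison, so that the class II median lay below it, and to 0.09 and -0.07 in the comparisons with PBS. Reversed for HDL NPs against PBS were CALR (0.06 with array weights, 0.15 without HDL NP replicate 1), CIITA (-0.07 and -0.05 under the same), RFX5 (-0.04 with the mean of probes, -0.05 without HDL NP replicate 1), TAP1 (-0.01 without HDL NP replicate 1, -0.03 without PBS replicate 2) and HLA-B (0.03 without HDL NP replicate 3). HLA-B was -0.20 without HDL NP replicate 1. With 1 array left out they ran -0.41 to 0.15 for CALR, -0.05 to 0.18 for CIITA, -0.05 to 0.35 for RFX5, -0.03 to 0.15 for TAP1 and -0.20 to 0.03 for HLA-B. The cause was not tested.

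Over all genes for HDL NPs against PBS, 38 higher and 4 lower calls became 86 and 25 with no background correction, 99 and 21 with an offset of 50, 0 and 2 with median scaling, 127 and 29 with array weights, 2 and 2 with only the groups compared and 0 and 1 with Student's test. With the replicate block, the replicate number as a term, there were 10 and 3, the 0 member calls were 0 and the class II median was -0.23. Same-numbered HDL NP and PBS arrays deviated together with correlations of 0.05, -0.08 and 0.16, so the numbers were not taken as pairs. A slide block was not run because no header or label gives a slide, and the second table was not run because it was not shown to measure expression. Signal over background was the limit for NLRC5, HLA-DQB1 and ERAP1, detected on 3, 5 and 8 arrays.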
